A study of Mus musculus with 4 samples.

Results

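The HoxA cluster is a run of homeobox genes on mouse chromosome 6, described here in posterior tissue of Cdx2+/-Cdx4-/- and wildtype embryos. Its members considered here are Hoxa2, Hoxa3, Hoxa4, Hoxa5, Hoxa6, Hoxa7, Hoxa9, Hoxa10 and Hoxa11. They were found as every non-control probe that carries 1 of these gene names in the scanner files, and were ordered by paralogous group. This gave 9 genes and 11 probes of 27573 gene names and 41174 probes on the array. Hoxa3 and Hoxa4 had 2 probes each. Of the 11 probes, 10 passed the filter on dim spots, and each of the 9 genes kept at least 1 probe. Hoxa13, at the 5′ end of the cluster, is not a member, and its value is given only beside theirs.

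Hox genes encode homeodomain transcription factors that give cells their position along the head-to-tail axis. Genes at the 3′ end of a cluster are switched on first and reach furthest forward, while those at the 5′ end follow later and stay closer to the tail. Cdx proteins, relatives of the Hox proteins encoded outside the clusters, bind Hox regulatory DNA and are known as activators of central and posterior Hox genes in the growing tail end of the embryo.

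The mutant embryos carried 1 mutated Cdx2 allele and no intact Cdx4, and the other embryos were wildtype. Embryos had 5 to 6 somites, the paired blocks of trunk mesoderm, and posterior parts of 10 embryos per genotype were pooled. Both genotypes were hybridised together, in Cy3 and Cy5, to each of 4 arrays. Replicate 1 comprises arrays 1 and 2 and replicate 2 comprises arrays 3 and 4, each with the dyes swapped on its second array by the labels. Separate embryo pools for the replicates are not mentioned, and the p-values therefore cover a spread among hybridisations that may be technical. The strain and the sex of the embryos are not given in the sources used here.

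The direction of the ratios was not settled by the labels. On the Cdx4 probe (chromosome X, 99532694 to 99532753, mm8), Cy5 over Cy3 in log2 was -2.59, -2.11, 2.82 and 2.42 for arrays 1 to 4. Read with the labelled dyes, the mutant had less Cdx4 signal on arrays 1 and 4 and more on arrays 2 and 3. Arrays 1 and 3, which carry the same dye labels, correlated at r = -0.36 over all probes, and arrays 2 and 4 at r = -0.38. Each array was therefore turned so that its Cdx4 ratio was negative, which follows the labels of arrays 1 and 4 and goes against those of arrays 2 and 3. After this alignment arrays 1 and 2 share 1 dye orientation and arrays 3 and 4 the other, so the labelled replicate and the dye orientation cannot be told apart in any difference between the replicates. All signs below are those of this alignment, as Cdx2+/-Cdx4-/- over wildtype. By the labels of arrays 2 and 3 every sign turns and higher and lower change places.

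Along the cluster, 1 member was higher and 3 were lower in Cdx2+/-Cdx4-/- tissue. Hoxa5 rose 1.36-fold (log2 0.44 ± 0.10, moderated SE, n = 2 labelled replicates). Hoxa7 fell 1.33-fold, Hoxa9 1.34-fold and Hoxa11 1.36-fold, with Hoxa7 at 0.062 in place of -0.41 when arrays were median-centred without loess. Median centring ended all 4 calls in limma (adjusted p = 0.815 for Hoxa5 and 0.993 for both Hoxa9 and Hoxa11). It put Hoxa5 at 0.66, Hoxa9 at -0.080 and Hoxa11 at -0.081, with a median of 0.28 over all genes. Relative to that median Hoxa5 was at 0.38, Hoxa7 at -0.22, Hoxa9 at -0.36 and Hoxa11 at -0.36. Hoxa2, Hoxa3, Hoxa4, Hoxa6 and Hoxa10 did not pass the test. With the sign turned, 3 members were higher and 1 lower. The test was limma over all probes with a Benjamini-Hochberg adjusted p under 0.05. Over all 14875 genes tested, 2.90% were called higher, 3.89% lower and 6.79% in either direction. These are bulk tissues, in which fewer cells of a type and less RNA per cell cannot be told apart. When array 1 was left out, none of the 4 members passed, with adjusted p-values of 0.0898 to 0.175 in limma. Their ratios were 0.39 for Hoxa5 and -0.43 to -0.34 for the others. In that fit 5 of 9 members, Hoxa10 included, and 2183 of all 14874 genes tested had an unadjusted p under 0.05.

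**Figure D1:**
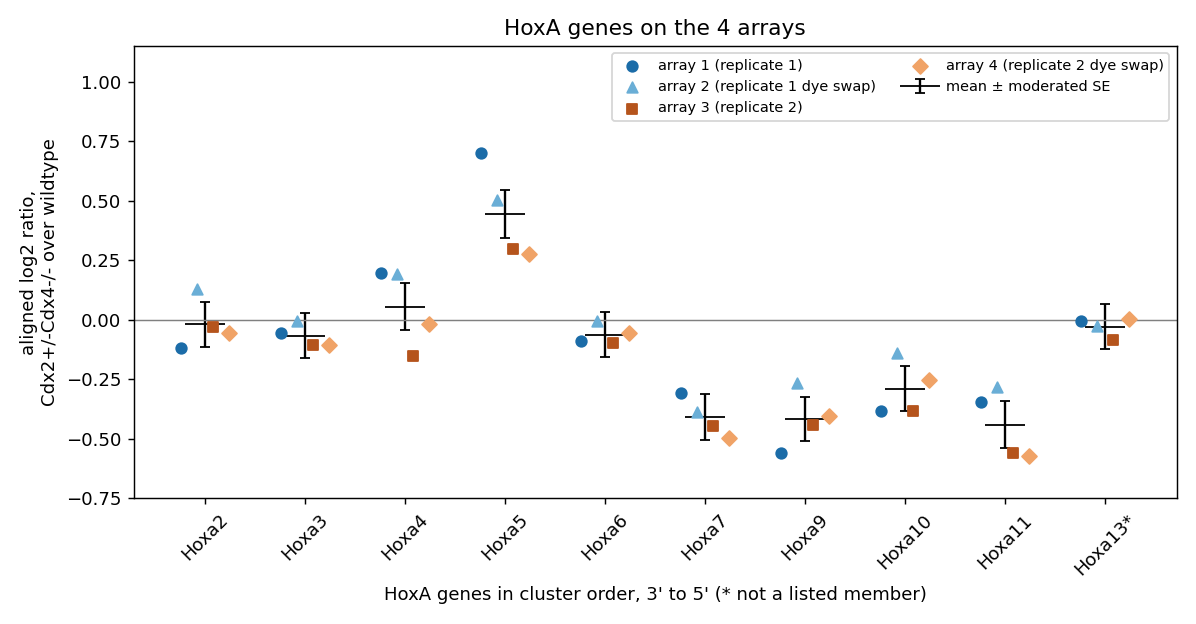
Aligned log2 ratio of Cdx2+/-Cdx4-/- over wildtype (vertical axis) for the members and Hoxa13 in cluster order (horizontal axis), with 1 symbol per array and the mean ± moderated SE in black (n = 2 labelled replicates). Hoxa5 lies above 0 and Hoxa7, Hoxa9, Hoxa10 and Hoxa11 below 0 on all 4 arrays, except that Hoxa7 is at 0.062 with median centring, and Hoxa2 and Hoxa4 lie on both sides of 0. A star marks Hoxa13, which is not a member.

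Hoxa2, Hoxa3 and Hoxa4 form the 3′ stretch of the list. Hoxa2 patterns the hindbrain and the second pharyngeal arch in the mouse. Its probe (chromosome 6, 52092179 to 52092238, minus strand, mm8) had aligned log2 ratios of -0.12, 0.13, -0.032 and -0.057 on arrays 1 to 4. The arrays lay on both sides of 0, and the fitted ratio was -0.019 with a 95% interval of -0.22 to 0.18. Hoxa3, needed for the thymus and parathyroid, was read from its brighter probe (52099994 to 52100053), with ratios of -0.056, -0.0034, -0.11 and -0.11. The fitted ratio was -0.068 (interval -0.27 to 0.13). Its other probe (52099328 to 52099387) was lower on all 4 arrays at a fitted ratio of -0.17 (interval -0.37 to 0.031, adjusted p = 0.395 in limma). Hoxa4, which acts in the cervical vertebrae, had ratios of 0.20, 0.19, -0.15 and -0.016 on its tested probe (52119380 to 52119439). Its fitted ratio was 0.055 (interval -0.15 to 0.26). Hoxa4 averaged 0.195 on arrays 1 and 2 and -0.085 on arrays 3 and 4, a split by labelled replicate and by dye orientation alike. Its other probe (52120179 to 52120238) was well above background in the mutant channel on 2 arrays and in the wildtype channel on 3, and was not tested. In all 3 genes the normalised intensities of the mutant and wildtype channels overlapped on the probe used. No member probe was saturated on any array.

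Hoxa5 and Hoxa6 are neighbours in the centre of the cluster, with probe centres 6.14 kb apart. Hoxa5 patterns the neck-to-thorax boundary of the skeleton and the trachea and lung. Its probe (52131633 to 52131692) had normalised intensities of 622, 621, 510.0 and 536 units in the Cdx2+/-Cdx4-/- channel, against 383, 438, 415 and 442 units in the wildtype channel. The genotypes did not overlap. The log2 ratios were 0.70, 0.50, 0.30 and 0.28 on arrays 1 to 4, higher in the mutant on 4 of 4 arrays. Replicate 1 averaged 0.60 and replicate 2 averaged 0.29. The fitted ratio of 0.44 ± 0.10 passed (limma, adjusted p = 0.0127), and lay at percentile 98.7 of all genes tested. That call ended when array 1, 2 or 3 was left out, at adjusted p-values of 0.0522 to 0.134 and ratios of 0.39 to 0.49. Hoxa6, a gene of the thoracic region, did not pass. Its probe (52137778 to 52137837) was dim, with 192, 183, 194 and 187 units in the mutant and 204, 184, 208 and 194 units in wildtype, and the genotypes overlapped. Its fitted ratio was -0.063 with an interval of -0.26 to 0.14. The difference between Hoxa5 and Hoxa6 in log2 ratio was 0.79, 0.51, 0.39 and 0.33 on arrays 1 to 4, so Hoxa5 had the higher ratio on each. That difference was not tested, since the genes were set side by side with their values known.

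Hoxa7 and Hoxa9 were both lower in the mutant. Hoxa7 acts in the thoracic vertebrae. On its probe (52145210 to 52145269) the mutant channel had 4745, 4115, 3968 and 3809 units, against 5870.3, 5381, 5403 and 5372 units in the wildtype channel. All mutant values lay below all wildtype values. The log2 ratios were -0.31, -0.39, -0.45 and -0.50, and the fitted ratio was -0.41 ± 0.095 (limma, adjusted p = 0.0145). It ended as a call without array 1 or array 2 (adjusted p = 0.0898 and 0.0614). With median centring in place of loess Hoxa7 was at 0.062, which is 0.22 below the median over all genes. Hoxa9, a regulator of the lumbar skeleton and of blood stem cells, had 1021, 1091, 1047 and 1020.2 units in the mutant channel on its probe (52153853 to 52153912), against 1502.6, 1312, 1421 and 1350.4 units in wildtype. The genotypes did not overlap here either. The log2 ratios were -0.56, -0.27, -0.44 and -0.40, with means of -0.41 in replicate 1 and -0.42 in replicate 2. The fitted ratio was -0.42 ± 0.094 (limma, adjusted p = 0.0119). It lay at percentile 2.20 of all genes, and Hoxa7 at percentile 2.34.

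Hoxa10 and Hoxa11 close the list at its 5′ end. Hoxa10 sets lumbar identity in vertebrae and is needed in the uterus. Its probe (52161240 to 52161299) had 471, 515, 499 and 541 units in the mutant channel, against 613, 569, 651 and 646 units in the wildtype channel. The mutant values lay below the wildtype values without overlap. The log2 ratios were -0.38, -0.14, -0.38 and -0.26, but the fitted ratio of -0.29 ± 0.094 did not pass (limma, adjusted p = 0.0858, unadjusted p = 0.00648). Its interval was -0.49 to -0.092. Hoxa11, which acts in the sacral vertebrae, the forearm and the kidney, passed. Its probe (52171691 to 52171750) had 1255, 1319.9, 1148 and 1136 units in the mutant channel, against 1594, 1607, 1692 and 1691 units in wildtype. The genotypes did not overlap. The log2 ratios were -0.35, -0.28, -0.56 and -0.57, larger in size on both arrays of replicate 2 than on those of replicate 1. The fitted ratio was -0.44 ± 0.099 (limma, adjusted p = 0.0114), at percentile 1.81 of all genes. Besides median centring, the Hoxa9 and Hoxa11 calls ended with the processed signals (adjusted p = 0.120 and 0.129 in limma) and without the filter on dim probes (0.108 and 0.159).

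**Figure D2:**
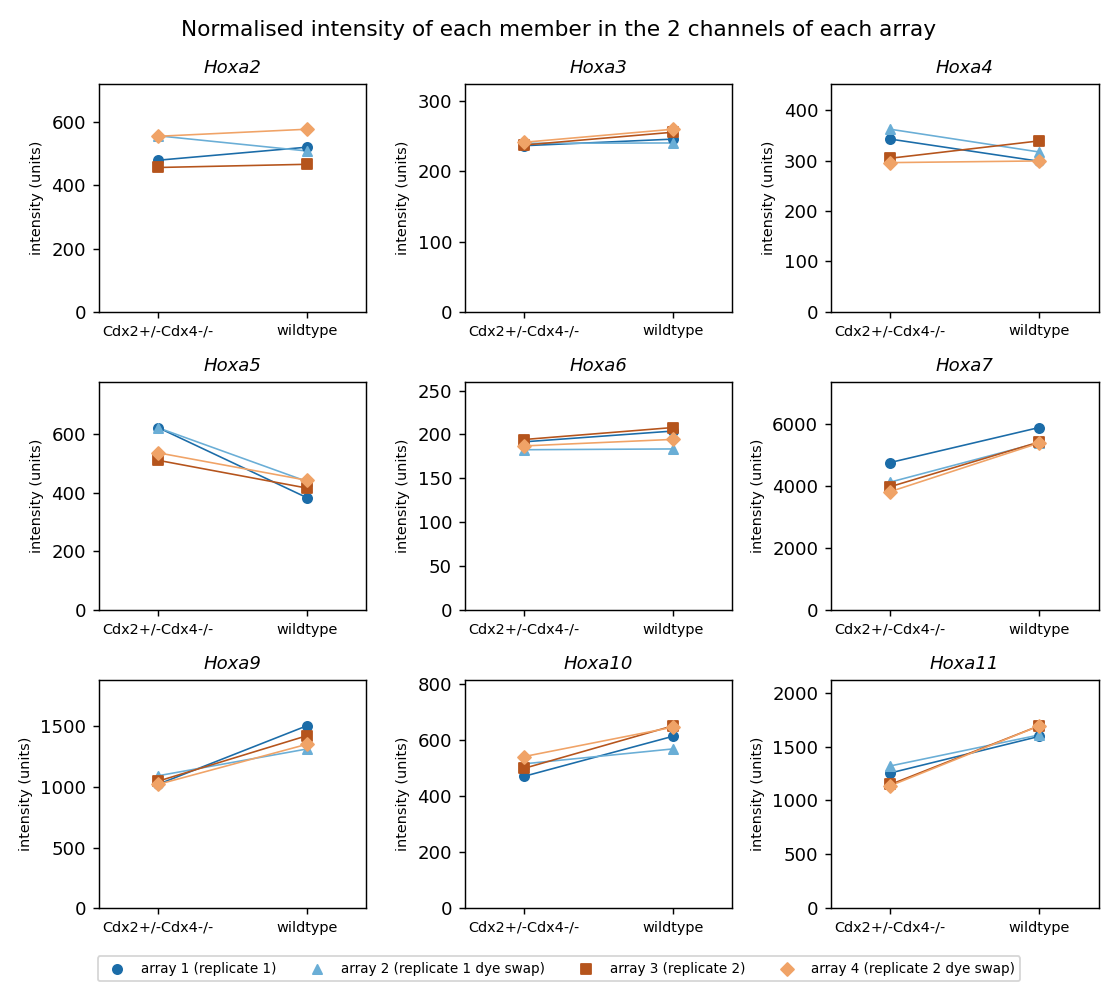
Normalised intensity in array units (vertical axis, from 0) of each member's brightest tested probe in the Cdx2+/-Cdx4-/- channel (left) and the wildtype channel (right) of each array, with 1 line per array. The lines run down to wildtype for Hoxa5 and up to wildtype for Hoxa7, Hoxa9, Hoxa10 and Hoxa11 on all 4 arrays (with median centring Hoxa7 had a ratio of 0.062). Axes differ between panels, and levels of different probes are not comparable.

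The promoter of each of the 4 members that passed is shown because Cdx proteins bind TTTAT-containing DNA and these members moved in both directions. The windows are the 250 bases before the RefSeq start on GRCm38.p6, all on the minus strand, written 5′ to 3′. Capitals mark TTTAT or its reverse complement ATAAA.
Hoxa5 (chr6:52204588-52204837): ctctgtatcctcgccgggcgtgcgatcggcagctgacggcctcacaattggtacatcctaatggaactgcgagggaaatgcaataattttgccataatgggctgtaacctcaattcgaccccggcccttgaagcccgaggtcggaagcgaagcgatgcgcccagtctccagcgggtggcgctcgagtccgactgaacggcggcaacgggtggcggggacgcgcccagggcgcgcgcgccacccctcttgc
Hoxa7 (chr6:52218574-52218823): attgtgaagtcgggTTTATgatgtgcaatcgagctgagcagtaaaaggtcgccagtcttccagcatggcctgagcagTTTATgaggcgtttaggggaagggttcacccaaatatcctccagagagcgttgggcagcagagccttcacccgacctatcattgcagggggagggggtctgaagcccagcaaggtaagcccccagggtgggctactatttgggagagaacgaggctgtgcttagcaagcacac
Hoxa9 (chr6:52227371-52227620): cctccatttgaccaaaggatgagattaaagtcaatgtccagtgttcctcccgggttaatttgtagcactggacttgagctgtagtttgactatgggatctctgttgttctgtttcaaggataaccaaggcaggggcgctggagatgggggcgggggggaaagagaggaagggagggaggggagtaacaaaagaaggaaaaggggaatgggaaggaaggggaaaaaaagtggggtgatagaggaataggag
Hoxa11 (chr6:52245811-52246060): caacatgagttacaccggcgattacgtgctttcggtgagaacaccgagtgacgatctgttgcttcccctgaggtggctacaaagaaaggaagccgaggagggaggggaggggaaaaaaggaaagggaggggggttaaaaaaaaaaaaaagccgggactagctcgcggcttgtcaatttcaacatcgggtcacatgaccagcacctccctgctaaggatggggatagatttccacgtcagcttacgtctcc

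Of these windows only that of Hoxa7 held the letters, at 2 places, 236 and 173 bases before the start, and both read TTTATG. Windows were matched for 8 of the 9 members by symbol, 9 windows in all because Hoxa10 had 2 starts. TTTAT or its complement was present in 4 of the 9, namely Hoxa2, Hoxa7 and both windows of Hoxa10. Over all 32851 windows of the same length in the table, 37.3% held it. The longer TTTATG, which contains the shorter motif, was present in 1 of the 9 and in 10.8% of all windows, and TTTATT in 2 of the 9 and in 18.1%. The combined Pbx and Hox motif TGATNNAT, also searched on both strands, was present in 1 of the 9 (Hoxa2) and in 7.68% of all windows. The Hoxa5 window had a GC content of 63.6%, and those of Hoxa7, Hoxa9 and Hoxa11 had 54.8%, 49.6% and 52.0%, with a median of 52.4% over all windows. A match describes the letters of the window and was not tested against binding.

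In cluster order the ratio fell towards the 5′ end without being smooth. Over the 9 members, Spearman's rho between paralogous group and fitted log2 ratio was -0.75, and it was -0.70, -0.73, -0.75 and -0.67 on arrays 1 to 4. It is a description across genes that share the same arrays, and it turns to a positive value with the sign. The median ratio was -0.019 over the 3 members of groups 2 to 4 and -0.41 over the 4 members of groups 7 to 11. Between them stood Hoxa5, whose log2 ratio was above that of Hoxa7 by 1.01, 0.89, 0.74 and 0.77 on arrays 1 to 4. Their probe centres lie 39.5 kb (Hoxa5) and 53.0 kb (Hoxa7) from that of Hoxa2. Over all 9 members the median was -0.068, against 0.015 over all genes tested. The tested probe of Hoxa13, the most 5′ gene, was at -0.029 (interval -0.23 to 0.17). It was dim, with 180 to 190 units in the mutant and 181 to 201 units in wildtype, which limits what its ratio can show. In the mutant channel it was well above background on 3 arrays.

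**Figure D3:**
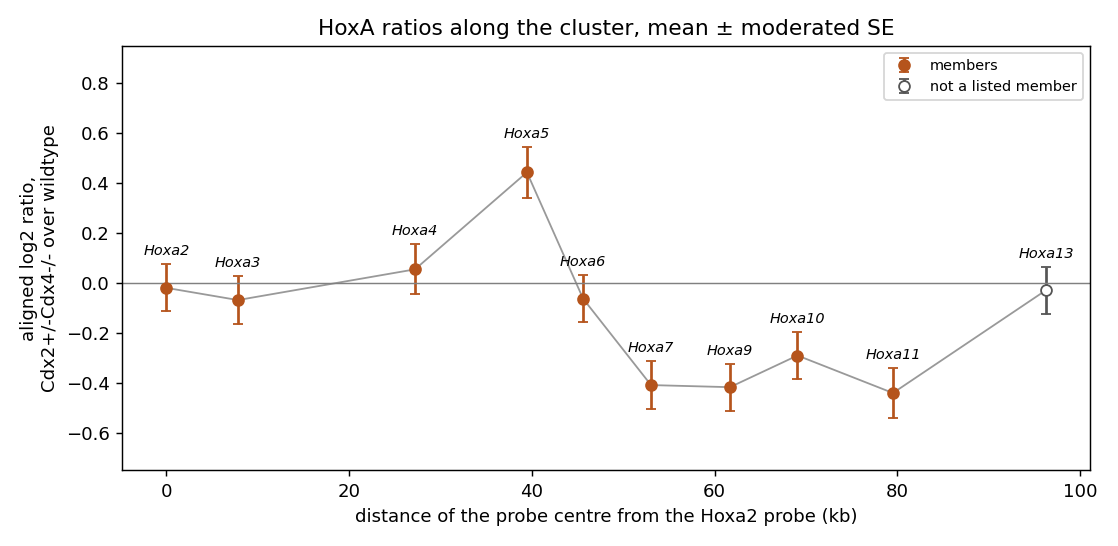
Fitted aligned log2 ratio ± moderated SE (vertical axis) of the members and Hoxa13 against the distance of its probe centre from that of Hoxa2 in kb (horizontal axis). Ratios are near 0 at Hoxa2, Hoxa3 and Hoxa4, 0.44 at Hoxa5, and between -0.44 and -0.29 from Hoxa7 to Hoxa11 (Hoxa7 at 0.062 with median centring). The open circle is Hoxa13, which is not a member and was read from a dim probe.

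The paralogues in the other clusters did not all share the direction of the HoxA member of their group. Of the 21 other Hox genes outside HoxA that were tested, 3 were higher (Hoxb1, Hoxb2 and Hoxd9) and 2 lower (Hoxc6 and Hoxd13), with a median of -0.041. These counts and those per cluster below stand beside 2.90% of all genes called higher and 3.89% lower. In group 5, Hoxa5 was at 0.44, beside -0.0099 for Hoxb5. In group 7, Hoxa7 was at -0.41 (0.062 with median centring), beside -0.049 for Hoxb7. In group 9, Hoxa9 was at -0.42, beside 0.62 ± 0.095 for Hoxd9 (limma, adjusted p = 0.000561), 0.15 for Hoxc9 and -0.041 for Hoxb9. In group 10, Hoxa10 was at -0.29, beside -0.050 for Hoxc10 and 0.034 for Hoxd10. The Hoxc10 probe was dim (193 to 209 units in the mutant, 200 to 214 in wildtype), which limits what its ratio can show. The Hoxd10 probe had 271 to 297 units in the mutant and 266 to 291 in wildtype. No other gene of group 11 passed the filter on dim spots. In group 2, Hoxa2 was at -0.019, beside 0.41 ± 0.094 for Hoxb2 (limma, adjusted p = 0.0130). Per cluster, 1 of 9 HoxA members was higher and 3 lower, while HoxB had 2 higher and 0 lower of 9, HoxC 0 and 1 of 5, and HoxD 1 and 1 of 7. Probes of 1 gene did not always agree: the dimmer probe of Hoxb2 was at -0.0011 and that of Hoxb9 at 0.25. This Hoxb9 probe had ratios of -0.10, 0.20, 0.016 and 0.88 on arrays 1 to 4, so its fitted ratio rests mostly on array 4. Differences between paralogues and between clusters were not tested.

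**Figure D4:**
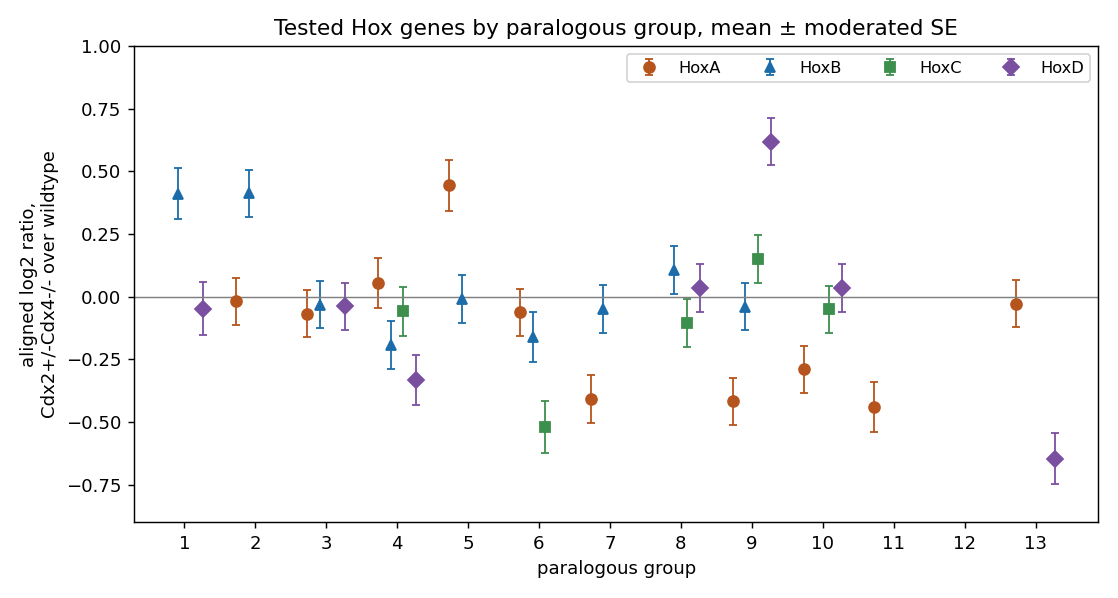
Fitted aligned log2 ratio ± moderated SE (vertical axis) of the tested Hox genes reported here by paralogous group (horizontal axis) and cluster (symbol and colour, n = 2 labelled replicates). Hoxa5 lies at 0.44 while Hoxb5 lies at -0.0099, and in group 9 Hoxa9 lies at -0.42 while Hoxd9 lies at 0.62.

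Hox proteins bind DNA together with TALE cofactors of the Pbx, Meis and Pknox families. Of 9 such genes tested, 1 was higher, Meis2, at 0.43 ± 0.10 (limma, adjusted p = 0.0157), and none was lower. At an unadjusted p under 0.05 in limma, 2 were higher and 0 lower, beside 2905 of all 14875 genes in either direction. In the exchange pairing described below 3 were higher and 1 lower, beside 40.3% of all genes in either direction. The dimmer Meis2 probe was at 0.29 and did not pass. Meis1 was at 0.32 (adjusted p = 0.0592) on its brighter probe and at -0.13 on the other, and neither passed. Of 20 regulators of Hox transcription, 3 were higher and 4 lower, against 6.79% of all genes called. The 4 include Cdx4, negative by the alignment, and Cdx2, mutated in these embryos, so those calls add nothing to that comparison. Cdx2 was at -0.54 ± 0.097 and Cdx1 at 0.40 ± 0.11, and Cdx4, which set the alignment, at -2.48. Rarb, a retinoic acid receptor and itself a retinoic acid target, was at 0.40 ± 0.094 (adjusted p = 0.0149 in limma). Cyp26a1, the enzyme that breaks down retinoic acid in the tail bud, was at -0.65 ± 0.096 (adjusted p = 0.000408). Wnt3a was higher at 0.34 and Kmt2a, a histone methyltransferase that keeps Hox genes active, lower at -0.33 (adjusted p = 0.0499).

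Markers of other cell types moved with the genotype in the same tissue. The calls below stand beside 2.90% of all genes called higher and 3.89% lower. The sums add intensities of different probes, so the brightest probes weigh most in them. All 9 axial progenitor genes passed the filter on dim spots, as did 21860 of 41174 probes, so passing does not identify the tissue. Of the 9 genes, 3 were higher and 3 lower (Cdx2, Cdx4 and Cyp26a1). The 9 summed to 20934 to 23927 units in the mutant and 24307 to 25273 units in wildtype. Cdx4 set the alignment and Cdx2 is mutated here, so their calls and their part in these sums say nothing about the tissue. Of 13 extraembryonic visceral endoderm markers 12 were lower and 0 higher, with a summed intensity of 47800.0 to 49236 units in the Cdx2+/-Cdx4-/- channels and 97328 to 108506 units in the wildtype channels. Of 11 presomitic and somite markers tested 3 were higher and 0 lower, with sums of 19982 to 22285 units in the mutant and 17975 to 18686 units in wildtype. Tbx6, which was not called (adjusted p = 0.398 in limma), held 10469 to 12434 of the mutant units and 9852 to 10483 of the wildtype units. Of 5 neural tube markers tested 3 were higher, with 3393 to 3762 units in the mutant and 2290.4 to 2495 units in wildtype. Of 8 lateral plate and allantois markers limma called 0. At an unadjusted p under 0.05 in limma, 1 was higher and 2 lower, beside 2905 of all 14875 genes in either direction. In the exchange pairing 2 were higher and 2 lower, beside 40.3% of all genes in either direction. The sums of these 8 markers were 5539 to 5962 units in the mutant and 5503 to 5773 units in wildtype. Of 9 endothelial markers 4 were lower, with 8579.8 to 9092 units in the mutant and 12372.5 to 13794 units in wildtype. The 3 primitive erythroid markers tested were all higher, at 4937 to 5485 units in the mutant and 1990.4 to 2245 units in wildtype, and Gata1 and Klf1 did not pass the filter. The part of these shifts in the HoxA ratios was not tested.

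How many genes pass depends on which arrays form a replicate. In 1 pairing 4 of 9 members passed beside 6.79% of all genes, and in the other 5 of 9 beside 40.3%. The values above average arrays of the same labelled number (labelled-number pairing), which leaves dye bias in the spread. If the labels of arrays 2 and 3 had been exchanged, arrays 1 and 3 would be 1 dye-swap pair and arrays 2 and 4 the other (exchange pairing). Which of these holds cannot be told apart here. There 1 member was higher and 4 lower, with Hoxa10 added, while 21.6% of all genes were called higher, 18.7% lower and 40.3% in either direction. The second Hoxa3 probe also passed there, at -0.17. Read as labelled, the arrays cancelled, so that Hoxa5 was at 0.044, Hoxa7 at 0.0074, Hoxa9 at -0.064 and Hoxa11 at -0.019, and limma called 0 members, also at an unadjusted p under 0.05.

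**Figure D5:**
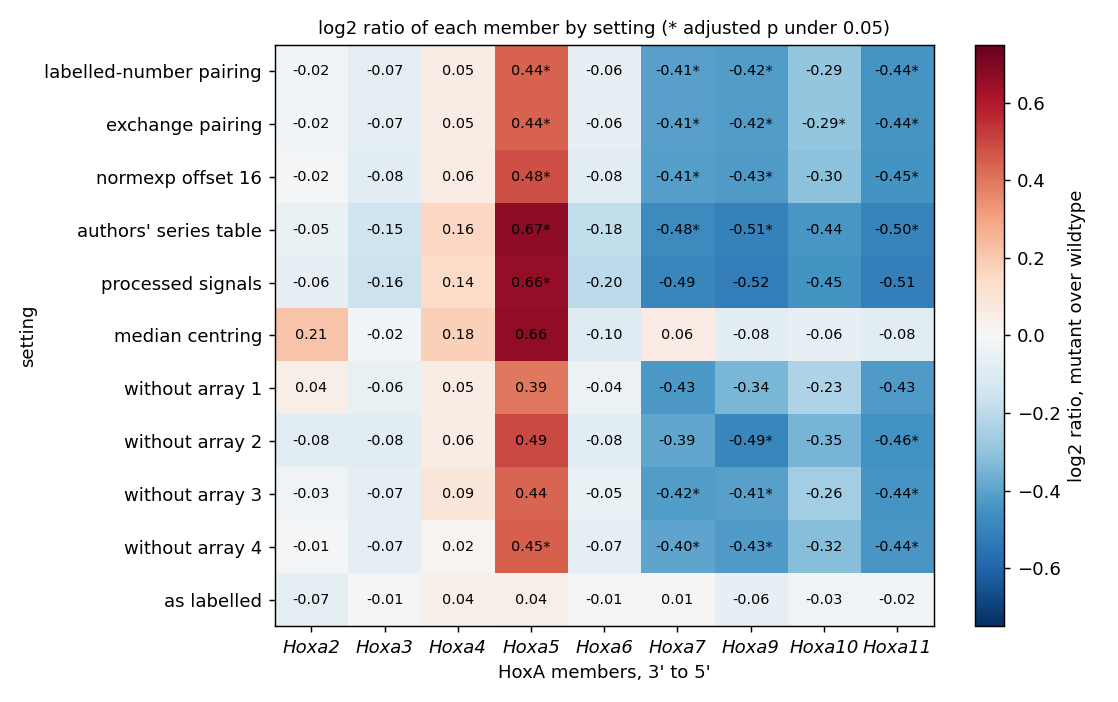
Log2 ratio of each member (columns, 3′ to 5′) under each processing setting (rows), with colour and printed number for the ratio and a star for an adjusted p under 0.05 in limma; grey would mark a member that was not tested. Hoxa5 is at 0.39 or above in all settings shown except as labelled, and Hoxa7, Hoxa9 and Hoxa11 lie between -0.52 and -0.34 in all but median centring and as labelled, where Hoxa7 is at 0.062 and 0.0074.

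The members, dim and bright alike, moved more with the whole processing than with the offset added to the signals. With an offset of 16 in place of 50 units, Hoxa6 was at -0.080, Hoxa3 at -0.080 and Hoxa4 at 0.063. In the authors' series table, which differs in background correction and normalisation as well, Hoxa6 was at -0.18, Hoxa3 at -0.15 and Hoxa4 at 0.16, and limma called none of them. Hoxa5 was at 0.67 there, Hoxa7 at -0.48, Hoxa9 at -0.51 and Hoxa11 at -0.50. All 4 passed narrowly, at adjusted p-values of 0.0398 to 0.0495 in limma. Hoxa10 was at -0.44 (adjusted p = 0.0688). The processed signals gave close ratios of 0.66 for Hoxa5, -0.49 for Hoxa7, -0.52 for Hoxa9 and -0.51 for Hoxa11. With them Hoxa7, Hoxa9 and Hoxa11 did not pass (adjusted p = 0.163, 0.120 and 0.129 in limma), so the series table is not separate support.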

How the data were processed

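Posterior embryo RNA was read on 4 two-colour Agilent whole mouse genome arrays (1 slide, 1 scan). The deposited intensity values are each spot's mean signal and median local background in Cy3 and Cy5, made by the scanner software per the file headers. The p-value and log10 ratio (Cy5 over Cy3) of each spot come from the same software, per the file headers, and the submitters' processing notes name it as Agilent Feature Extraction 9.5.3. The deposited series table holds log10 ratios equal to the scanner ratio on arrays 1 and 3 and to its negative on arrays 2 and 4 (100% of probes, tolerance 1e-05), with a median of 0. Probe positions are on mm8, per the file headers, and exon or UTR annotation of that build was not used here.

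Mean signals were corrected with normexp (offset 50 units) against the local background and loess-normalised within arrays in limma 3.58.1 (R 4.3.3). Control spots and 103 to 167 outlier spots per array were left out, and replicate spots were averaged. Testing required a probe to be well above background on all 4 arrays in at least 1 genotype's channel (21860 of 41174 probes), and a gene was read from its brightest tested probe. Arrays of 1 labelled number were averaged, and lmFit and eBayes (1 residual and 17.0 prior degrees of freedom) gave moderated SEs and p-values, adjusted by Benjamini-Hochberg over all tested probes. Intensities per channel were taken after loess and Aquantile scaling. Between 50.6% and 56.4% of probes were well above background in Cy3 and 58.9% to 64.9% in Cy5, and 4 arrays limit the precision. Gene names were updated through RefSeq (23374 probes by accession, 6733 by symbol and 2919 by older symbol), and 8148 kept the file's name. Members and gene lists were chosen with earlier results of these data known. Named genes are all members, Hoxa13, cofactors and regulators, and other Hox genes past the threshold. Paralogues under it are named beside their HoxA gene, and were added after values were seen. Alternatives were the pairing of arrays, a dye term, the background correction, the normalisation, the dim-probe filter and leaving out arrays. Some items are not reported here. The fit was tested on simulated data.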

Additional observations from a re-analysis of the deposited data

Results flagged for a closer look

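The dim Hoxa4 probe A_52_P638382 had an aligned log2 ratio of 0.11 on array 4, against -0.035 to -0.024 on the other 3 arrays. The gap set this array apart from the others by Dixon's test. In all, 39 groups of 4 arrays were examined, of which chance flags about 1 in 20. The probe was well above background in the mutant channel on 2 arrays and in the wildtype channel on 3, and it was not tested.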

How the results depend on the processing

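Over 15 tested settings other than the reading as labelled (14 for Hoxa6, not tested where both channels had to be well above background), members kept their sign in all but these: Hoxa2 was at 0.21 with median centring, 0.043 without array 1 and 0.049 on arrays 2 and 3 only, and Hoxa7 at 0.062 with median centring. Hoxa7 also turned to 0.0074 as labelled. The cause was not tested. As labelled, Hoxa5 was at 0.044, Hoxa9 at -0.064 and Hoxa11 at -0.019. With median centring, where the median of all genes was 0.28, Hoxa5 was at 0.66, Hoxa9 at -0.080 and Hoxa11 at -0.081, with no call. Calls were also lost without the dim-probe filter (Hoxa5 0.44, Hoxa7 -0.41, Hoxa9 -0.42, Hoxa11 -0.44, with 27573 genes tested) and with the processed signals (Hoxa7 -0.49, Hoxa9 -0.52, Hoxa11 -0.51). On arrays 1 and 4 only, chosen after seeing the data, Hoxa5 (0.49) and Hoxa7 (-0.40) lost the call. On arrays 2 and 3 only, likewise chosen, Hoxa5 (0.40), Hoxa7 (-0.42), Hoxa9 (-0.35) and Hoxa11 (-0.42) did. Hoxa10 (-0.29) passed in the exchange pairing, the third pairing and with a dye term and no replicate block (adjusted p = 2.76e-07, 1.22e-06 and 0.000270 in limma). In that order, these fits called 3215, 4303 and 3658 genes higher and 2787, 3601 and 3065 lower, of 14875, 14875 and 14843 tested. In the exchange pairing every gene had the same SE of 0.0519, so its p-values follow the size of the ratio alone.

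Members called higher, 1 in the values above, were 0 as labelled, with median centring, without the filter, on arrays 1 and 4 and on arrays 2 and 3. Members called lower, 3 above, were 0 as labelled, with median centring, with processed signals, without the filter and on arrays 2 and 3, and 2 on arrays 1 and 4. Genes called higher, 432 above, were 3215 in the exchange pairing, 4303 in the third, 2 as labelled, 3658 with a dye term, 0 with median centring (266 genes in either direction at an unadjusted p under 0.05), 10 without the filter, 223 on arrays 1 and 4 and 232 on arrays 2 and 3. Genes called lower, 578 above, were 2787, 3601, 22, 3065, 0, 4, 349 and 249 in the same order, and 886 in the series table. Leaving out 1 array gave 0 to 1 members higher, 0 to 3 lower, 88 to 316 genes higher and 76 to 471 lower. It gave ratios of -0.082 to 0.043 for Hoxa2, -0.081 to -0.055 for Hoxa3, 0.020 to 0.089 for Hoxa4, 0.39 to 0.49 for Hoxa5, -0.083 to -0.042 for Hoxa6, -0.43 to -0.39 for Hoxa7, -0.49 to -0.34 for Hoxa9, -0.35 to -0.23 for Hoxa10 and -0.46 to -0.43 for Hoxa11. Leaving out 1 replicate gave -0.044 to 0.0055, -0.11 to -0.030, -0.085 to 0.195, 0.29 to 0.60, -0.077 to -0.048, -0.47 to -0.35, -0.42 to -0.41, -0.32 to -0.26 and -0.57 to -0.31 in that order, with no test. All arrays share 1 slide and 1 scan, so neither could be a block. Dim probes such as those of Hoxa3, Hoxa4 and Hoxa6 limit what can be seen near background.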

Other observations

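The 4 genes given here lie within or beside the HoxA cluster and were named after their values were seen. Hoxaas2 was at -0.018 ± 0.097 (adjusted p = 0.969). Outside the cluster, Evx1, a homeobox gene at its 5′ end, was at 0.092, Hibadh at -0.10 and Skap2 at 0.28, and limma called none of them.

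In the authors' deposited table of scanner p-values, made within single arrays, Hoxa5 was under 0.01 on 2 arrays (3.71e-06 and 2.75e-05, both of replicate 1), and Hoxa7, Hoxa9 and Hoxa11 on 1 array each. No other member was under 0.01 on any array. These p-values come from the same spots as the ratios above, so they are not separate support. The share of all probes under 0.01 was not counted.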
